A study of Mus musculus with 16 samples.

Results

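The regions described here are stretches of liver mRNA that carried an N6-methyladenosine (m6A) peak in at least 2 of 4 mice fed a high-fructose diet (HFrD) and in none of 4 mice fed a normal diet (ND). They were found by merging every peak of the 8 mice that overlapped another by 1 bp or more, which turned 77183 peaks into 17526 regions, and 463 of these regions, or 2.64%, met the rule. They lay in 435 genes, 5.65% of the 7693 genes with a peak in any mouse. In 306 of them the host gene had another peak elsewhere in at least 1 ND mouse, and for 37 of the 306 in only 1. These 306 are called new sites here, meaning only that a peak was listed at a new position. The name does not show that methylation was gained. In the other 157 the host gene had no peak in any ND mouse. All 463 regions were chosen by the measured presence of peaks in the 8 lists, so their number and their absence from ND mice are a description and carry no test.

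The livers came from C57BL/6J males, 10 to 11 weeks of age, that received either ND or HFrD for 2 weeks, HFrD taking 10% of its energy from fat, 70% from carbohydrate and 20% from protein. The labels name no transgene or mutation, and the source of the carbohydrate beyond the name of the diet was not given in the sources used here. ND mice 1, 3, 6 and 7 and HFrD mice 1, 2, 5 and 7 each gave an immunoprecipitated (IP) library and an input library, 16 libraries in all, and 1 peak list. Whole liver was used, so less mRNA per cell, fewer cells of a type and fewer methylated copies cannot be told apart from a peak list.

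m6A is placed on adenosines of nascent mRNA by a methyltransferase complex built around METTL3 and METTL14, is removed by FTO and ALKBH5, and is read by YTH domain proteins that affect the splicing, translation and decay of the marked mRNA. It is found mostly within a short motif, of which GGAC followed by T (U in the RNA) is the best known form, and it is typically dense near stop codons and in long internal exons. In liver it has been studied on the mRNAs of lipid and sugar metabolism and of the circadian clock. In methylated RNA immunoprecipitation sequencing (MeRIP-seq), fragmented RNA is pulled down with an m6A antibody, and a peak is a place where IP reads exceed input reads. A gene with little mRNA can fail to give a peak for lack of reads, and a missing peak is no measure of missing methylation.

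The motif of 8 of the 16 regions with a peak in every HFrD mouse is printed here to show which transcript stretches the comparison turns on. They are the 8 that ranked highest by median score among those holding the motif, Spata24 left out. Each line gives at most 25 bases of the transcribed strand of the mm10 (GRCm38) RefSeq genome, 5′ to 3′, around the GGACT (or, where there was none, the GGAC) nearest the middle of the region, with the motif in capitals. A match is only a place where these letters stand, not a measured methylated base.
Morc4: cagggtcccaGGACcaagatcagg
Osmr: acaccaacttGGACTattggctcca
Ppp1r3g: tgcagtcaggGGACTctggatcaaa
Marco: aggtgcaccaGGACTttcaggtgcc
Inhbb: cctttgctggGGACTtcctcctggt
Fam177a: tgttttagtgGGACTtaaaacaact
Nelfe: tctgcccatcGGACcccgaggttg
Hic2: gaaggtgaagGGACTggggacaggg
The windows lie at chrX:139824367-139824390 (Morc4, minus strand, coding sequence), chr15:6815638-6815662 (Osmr, minus strand, 3′ untranslated region or UTR), chr13:35969401-35969425 (Ppp1r3g, plus strand, coding sequence), chr1:120484814-120484838 (Marco, minus strand, coding sequence), chr1:119416399-119416423 (Inhbb, minus strand, 3′ UTR), chr12:55139039-55139063 (Fam177a, plus strand, 3′ UTR), chr17:34850569-34850592 (Nelfe, plus strand, near the start codon) and chr16:17258404-17258428 (Hic2, plus strand, coding sequence). The label coding sequence, 3′ UTR or start codon refers to the middle of the whole region.

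Most of the 463 regions just met the rule. A peak was present in exactly 2 HFrD mice for 364 regions, in 3 for 83 and in all 4 for 16, the last being 0.0913% of all regions. The mirror rule, a peak in at least 2 ND mice and no HFrD mouse, took 977 regions (5.57%), of which 664, 249 and 64 stood in 2, 3 and 4 ND mice; the 64 were 0.365% of all regions. The share whose gene had no peak on the other diet was 31.6% among HFrD-leaning regions in 2 mice, 37.3% in 3 mice and 68.8%, or 11 of 16, in 4 mice, while among ND-leaning regions it was 31.5%, 33.3% and 34.4%. List lengths touch these counts: the ND lists held 8959, 9799, 10397 and 11517 peaks and the HFrD lists 8627, 9736, 10093 and 8055. With each list cut to its 8055 highest-scoring peaks, 623 regions leaned to HFrD and 556 to ND, so the excess of ND-leaning regions turned into an excess of HFrD-leaning regions.

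**Figure D1:**
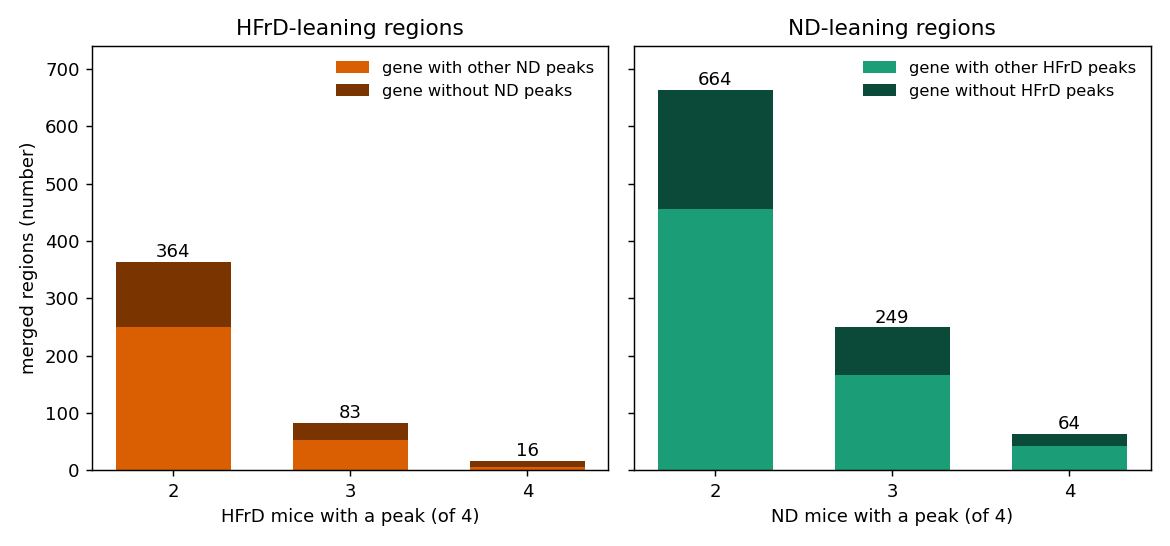
Number of merged regions (vertical axis) by the number of mice with a peak (horizontal axis), for HFrD-leaning regions on the left and ND-leaning regions on the right, with the darker part of each bar for regions whose gene had no peak on the other diet. The bars fall from 364 to 83 to 16 on the left and from 664 to 249 to 64 on the right, and the darker part takes the largest share of its bar, 11 of 16, in the left bar for 4 mice.

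The HFrD mice shared these regions unevenly. HFrD mice 1, 2, 5 and 7 held 214, 291, 317 and 219 of them, which were 2.52%, 2.99%, 3.14% and 2.72% of their lists by peaks. The pair of mice 2 and 5, with the longest HFrD lists, was alone behind 109 regions, and the pair of mice 1 and 7, with the shortest, behind 35. Without HFrD mouse 5 the count was 231, without HFrD mouse 2 it was 257, and without ND mouse 7, which had the longest list, it rose to 791, since a region then had 1 list fewer to be absent from.

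The peaks in these regions were mostly weak ones. The deposited score rises with the significance of the peak, and ranked within the list of its own mouse (100 being the highest), the median percentile of the peaks in HFrD-leaning regions was 21.2, 23.2, 23.6 and 22.9 in HFrD mice 1, 2, 5 and 7, with 84% to 86.6% in the lower part of the list, below its median. The median fold enrichment, the deposited ratio of IP to input in a peak, was 6.81, 5.52, 6.37 and 6.52 in these regions and 8.5, 7.34, 8.03 and 7.52 over the whole lists. ND-leaning regions ranked as low in their own lists, with medians between 17.8 and 22.8, whereas the median over the 4360 regions in all 8 mice was 73. Just inside the rule, the 364 regions in exactly 2 HFrD mice had a median score of 79.1 and a fold enrichment of 6.32. Just outside it, the 1774 regions in a single HFrD mouse and no ND mouse had 66.4 and 5.72, and the 772 in at least 2 HFrD mice and 1 ND mouse had 85.3 and 6.32 in the HFrD mice. The false discovery rate (FDR) that came with the peaks was high throughout, with list medians of 76.9% to 100% and medians in these regions of 85.2% to 100% in the HFrD mice.

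**Figure D2:**
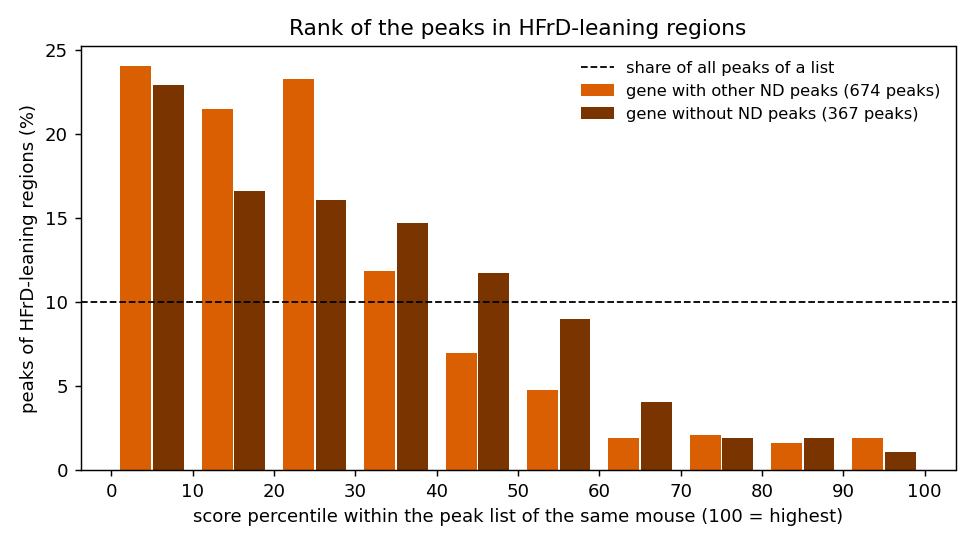
Share of the peaks in HFrD-leaning regions (vertical axis, %) by their score percentile within the list of the same mouse (horizontal axis, in steps of 10), for regions in genes with other ND peaks and in genes without. The dashed line at 10% is the share that all peaks of a list have in each step, and both sets of bars stand above it in the 3 lowest steps and far below it in the highest.

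A set of 16 regions in 15 genes carried a peak in all 4 HFrD mice, and the values of each mouse are given for them in the order HFrD 1, 2, 5 and 7. Receptors and secreted factors came to 3. Osmr encodes the subunit of the oncostatin M receptor that binds alongside gp130, and its 1747 bp region on the last exon (chr15:6814182-6815928) had fold enrichments of 9.36, 6.31, 5.17 and 7.22. Marco is a scavenger receptor of macrophages, and its 99 bp region, exon 11 of 17 (chr1:120484774-120484872), had 7.86, 7.28, 9.41 and 8.55. Inhbb encodes the beta B chain of activin B and inhibin B, and its 2606 bp region on exon 2 of 2 (chr1:119415492-119418097) had 10.4, 8.51, 5.72 and 10.34. None of these 3 genes gave a peak in an ND mouse. Marco gave 3, 1, 3 and 2 peaks in the HFrD mice, and exons 13 and 14, each with a peak in 2 HFrD mice, were HFrD-leaning as well.

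Metabolic and lysosomal genes came next. Ppp1r3g encodes a subunit that brings protein phosphatase 1 to glycogen, and its 2158 bp region on exon 2 of 2 (chr13:35968231-35970388), which held 15 GGAC and 4 GGACT, had 6.38, 4.25, 5.97 and 8.34. Osbpl8 encodes an oxysterol-binding-related protein that exchanges lipids between the endoplasmic reticulum and the plasma membrane, and exon 23 of 24 (chr10:111291491-111291593) had 3.94, 3.3, 4.8 and 3.93, the lowest median of the 16. Ctsl encodes the lysosomal protease cathepsin L, and exon 2 of 8 (chr13:64369028-64369164) had 4.79, 4.17, 5.35 and 3.62. Ppp1r3g and Ctsl had no peak in any ND mouse, while Osbpl8 had 2 peaks in ND mouse 3, at the closest 57800 bp away.

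Transcription and chromatin genes made up the next group. Nelfe encodes the RNA-binding subunit of the negative elongation factor that holds RNA polymerase II near promoters, and exon 1 of 11 (chr17:34850391-34850674) had 4.38, 6.8, 7.07 and 5.26. Hic2 encodes a zinc finger repressor, and its 2016 bp region on exon 3 of 3 (chr16:17257574-17259589) had 9.79, 9.05, 4.77 and 6.02. Morc4 encodes a MORC family ATPase with a CW zinc finger, and exon 15 of 16 (chrX:139823966-139824644) had 6.81, 10.25, 13.81 and 9.07. Morc4 had the highest median fold enrichment of the 16 regions and, with a spread from 6.81 to 13.81, also the widest range between mice. Gtf3c6 encodes a subunit of the RNA polymerase III factor TFIIIC, and its 87 bp region on exon 1 (chr10:40257579-40257665) had 8.93, 6.47, 6.91 and 9.08. Gtf3c6 differed from the other 3 genes in having 2 or 3 peaks in every ND mouse, none nearer than 3114 bp.

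The remaining regions lay in genes with more varied roles. Tbc1d31, a TBC domain gene, held 2 of them. Its exon 16 (chr15:57955273-57955408) had 9.79, 8.19, 5.1 and 4.77, and its exon 15 (chr15:57953488-57953838) had 5.67, 5.4, 7.25 and 6.44. A further 2 exons of Tbc1d31 were HFrD-leaning in 3 and in 2 mice, and the gene gave 2, 4, 5 and 3 peaks in the HFrD mice and none in the ND mice. Ttc3 encodes a ubiquitin ligase with tetratricopeptide repeats, and exon 38 of 46 (chr16:94454427-94454523) had 9.36, 6.4, 6.99 and 6.67. The exons on either side, 37 and 39, leaned to HFrD in 2 mice each, yet Ttc3 had 3, 3, 2 and 2 peaks in ND mice 1, 3, 6 and 7 elsewhere. Hcls1 encodes a cortactin-like protein of blood cells, and exon 10 of 14 (chr16:36957212-36957423) had 5.18, 4.64, 5.5 and 7.52, with 1 peak of the gene in ND mouse 7, 4567 bp away. Fam177a (chr12:55138776-55139719) had 5.53, 6.38, 6.67 and 6.92. Spata24 (chr18:35660016-35660353), named for spermatogenesis, had 6.13, 7.37, 11.12 and 9.93 and no ND peak.

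**Figure D3:**
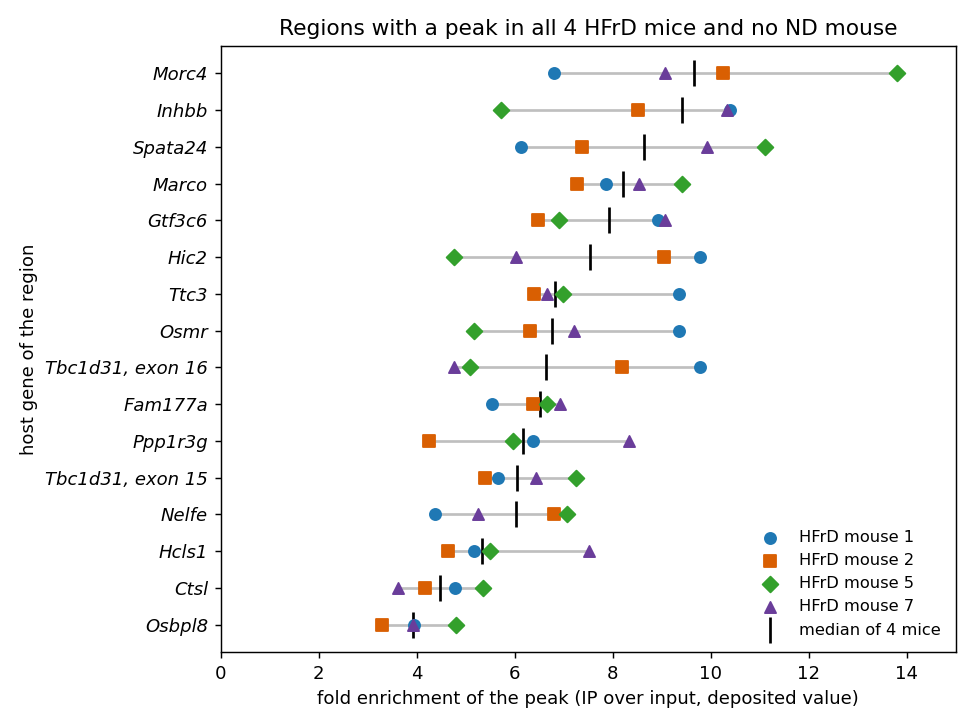
Fold enrichment of the peak (horizontal axis, IP over input as deposited) in each of the 4 HFrD mice (symbols) for the 16 regions shared by these mice and absent from ND mice (vertical axis, by host gene), with the range as a grey line and the median as a black tick. Values run from 3.3 in Osbpl8 to 13.81 in Morc4, and no mouse is the highest or the lowest in every region.

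Fatty acid-binding proteins, which carry fatty acids through the cytosol, recurred among the regions in 3 mice, a family noticed after its values were seen. Fabp1, the abundant form of hepatocytes, had a peak over its 167 bp first exon (chr6:71199827-71199993) in HFrD mice 2, 5 and 7 with fold enrichments of 46.03, 67.62 and 50.44. These were among the strongest peaks of their lists, at percentiles of 97.8, 98.1 and 98.6. A neighbouring exon 1614 bp away carried a peak in every mouse, at 18.7, 17.28, 21.65 and 56.07 in ND mice 1, 3, 6 and 7 and 25.15, 23.38, 24.68 and 13.89 in HFrD mice 1, 2, 5 and 7, and there the diets overlapped. Fabp2, the intestinal form, leaned to HFrD at exon 2 of 4 (chr3:122896737-122896909), with 3.21, 3.03 and 3.23 in HFrD mice 1, 2 and 5, beside another region with a peak in all 8 mice. Fabp4, the form of adipocytes and macrophages, had 4.41, 7.08 and 6.36 in HFrD mice 2, 5 and 7 on exon 3 of 4 (chr3:10205241-10205342) and no ND peak. The median percentiles of these Fabp2 and Fabp4 regions were 16.6 and 40.9, so only Fabp1 ranked high. All 3 Fabp genes with a peak in any mouse thus held an HFrD-leaning region and none held an ND-leaning one. Over all genes with a peak these shares were 5.65% and 11.5%, and a count in a family picked this way carries no test. The study's tables also give a raised m6A site in Fabp5, a gene without a peak under that name in the lists of the 8 mice.

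Stearoyl-CoA desaturases, which put the first double bond into saturated fatty acids, held 4 of the regions. Scd3 had fold enrichments of 10.59, 12.39 and 17.76 over exon 2 (chr19:44215402-44215684) and of 13.46, 22.25 and 26.48 over exon 6 of 6 (chr19:44241660-44242041) in HFrD mice 2, 5 and 7. Between those exons, another region of Scd3 (chr19:44235771-44235976) had a peak in ND mice 1, 3 and 7, at 15.08, 7.3 and 7.39, and in no HFrD mouse. Scd4 had 14.79, 16.53 and 5.42 over exon 6 (chr19:44344700-44345272) in HFrD mice 2, 5 and 7 and 6.37, 3.48 and 4.54 over exon 4 (chr19:44338910-44339115) in HFrD mice 1, 2 and 5, with no peak in an ND mouse. Scd1, the main hepatic form, had a shared region in all 8 mice, with 12.42, 9.31, 15.98 and 10.53 in the ND mice and 9.94, 10.51, 13.57 and 7.23 in the HFrD mice, which overlapped. The Scd genes are close paralogs in a row on chromosome 19, and how reads that align to more than 1 of them were counted is not given in the sources used here, so the assignment to Scd3 or Scd4 is uncertain.

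Nuclear receptor and bile acid genes held regions in 2 mice each. Nr1h4, the bile acid receptor FXR, had 7.55 and 6.47 in HFrD mice 1 and 5 on exon 2 of 9. Baat, which conjugates bile acids with taurine or glycine, had 5.21 and 4.21 in mice 5 and 7 over its last exon, with 6 GGAC and 4 GGACT in the region. Abcg5, which with Abcg8 exports sterols into bile, had 6.45 and 6.29 in mice 5 and 7 over exon 11 of 13. None of these 3 genes had a peak in an ND mouse. They were 3 of the 16 genes with a peak on the cholesterol and bile acid list, of which none hosted an ND-leaning region, where 5.65% of all genes with a peak hosted an HFrD-leaning region and 11.5% an ND-leaning one.

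On the lists of this paragraph the counts were small, from 0 to 4 genes, and each should be read beside those shares of all genes. As shares of the genes with a peak they ran from 0% to 18.2%, the highest on lipid uptake, droplets and lipoproteins. HFrD-leaning regions lay in 2 of 18 genes of fatty acid synthesis (Scd3 and Scd4), in 1 of 19 of fructose, glucose and glycogen metabolism (Ppp1r3g), in 0 of 21 of fatty acid oxidation and PPAR signalling, and in 4 of 22 of lipid uptake, droplets and lipoproteins (Fabp1, Fabp2, Fabp4 and Lipe). ND-leaning regions lay in 3, 4, 1 and 5 genes of these same lists, in that order. Of insulin, AMPK, mTOR and growth hormone signalling, 2 of 28 genes held one (Pik3r1 and Stat5b), of the circadian clock 1 of 15 (Per2), and of xenobiotic metabolism 1 of 12 (Por, the electron donor of cytochromes P450), where ND-leaning regions lay in 4, 5 and 3. None of the 15 m6A writers, erasers and readers with a peak and none of the 19 genes of the unfolded protein and oxidative stress list held one, and 1 of each hosted an ND-leaning region. Acute phase and cytokine signalling had 3 of 25 (Osmr, Tlr2 and Inhbb), with as many ND-leaning. A partial list of 30 genes that the study names as changed, chosen by it on these mice and so not independent evidence, had 21 genes with a peak, of which 1 held an HFrD-leaning region (Atp2b2) and 3 an ND-leaning one. The study's tables name further genes, so this count does not measure the overlap with them. Atp2b2 is matched by gene name only. Its HFrD-leaning regions (chr6:113756832-113757014 and chr6:113805086-113805586) do not overlap the Atp2b2 sites in the study's tables. The study also lists key genes whose mRNA changed both on HFrD and in mice lacking the leptin receptor. Among those raised on HFrD it names Morc4, Tbc1d31, Hcls1, Marco and Ppp1r3g, each with a region in all 4 HFrD mice. It also names Fabp4, Pydc4 and further host genes such as Acpp, Acss3 and Tubb2a. That list does not hold every gene raised on HFrD, so a gene missing from it may also have been raised. The share of all genes with a peak that are on it was not counted. Whether more mRNA gave these peaks was not tested.

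Among cell type markers, HFrD-leaning regions lay in 1 of 10 hepatocyte markers (C8a), 2 of 13 Kupffer cell and macrophage markers (Marco and Ctsl), 2 of 10 endothelial markers (Lyve1 and Egfl7), and in 0 of 9 stellate cell, 0 of 3 cholangiocyte and 0 of 3 lymphocyte and neutrophil markers. ND-leaning regions lay in 1, 2, 1, 0, 2 and 0 genes of these lists. Over all genes with a peak, 5.65% hosted an HFrD-leaning region and 11.5% an ND-leaning one. The total number of peaks on Kupffer cell and macrophage markers overlapped between diets, at 17, 13, 17 and 17 in ND mice 1, 3, 6 and 7 and 17, 14, 16 and 16 in HFrD mice 1, 2, 5 and 7. Hepatocyte markers carried 5 to 10 peaks in the ND mice and 5 to 7 in the HFrD mice. Cholangiocyte markers carried fewer on HFrD, with 5, 6, 5 and 7 in the ND mice and 3, 5, 4 and 2 in the HFrD mice. Stellate cell markers had 4 to 10 and 5 to 8, endothelial markers 8 to 13 and 10 to 15, in ND and HFrD mice. Lymphocyte and neutrophil markers had 2 or 3 in the ND mice and 3 in each HFrD mouse. A part of cell composition in any single region was not tested.

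Genes of the interferon-inducible Ifi200 family, many of whose products sense DNA or act in the nucleus, held several of these regions side by side. This group was also picked after its values were seen. Between 173464971 and 173938026 on chromosome 1, 9 genes from Aim2 to Ifi203 held 26 regions, and 8 of the 26, or 30.8%, leaned to HFrD, while 0 leaned to ND, beside 2.64% and 5.57% of all regions. The 8 lay in Gm4955, Pydc4, Pydc3, AI607873, Mndal and Mnda. The first of the Pydc4 regions (chr1:173589507-173590460) had fold enrichments of 10.21 and 4.29 in HFrD mice 1 and 2, and the other (chr1:173595021-173595305) had 12.46, 5.72 and 7.82 in mice 2, 5 and 7. Peaks over the whole cluster numbered 6, 5, 0 and 8 in ND mice 1, 3, 6 and 7 and 15, 17, 11 and 9 in HFrD mice 1, 2, 5 and 7. The 8 chosen regions, at 0 in every ND mouse by the rule, are part of these counts. On the 18 other regions of the cluster, which the rule left out, the counts were 6, 5, 0 and 8 in ND mice and 11, 10, 7 and 6 in HFrD mice, which overlapped. ND mouse 6 had no peak anywhere in the cluster, although its list was the second longest. Some genes of the family are close copies of each other, and the assignment of reads among those is uncertain.

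**Figure D4:**
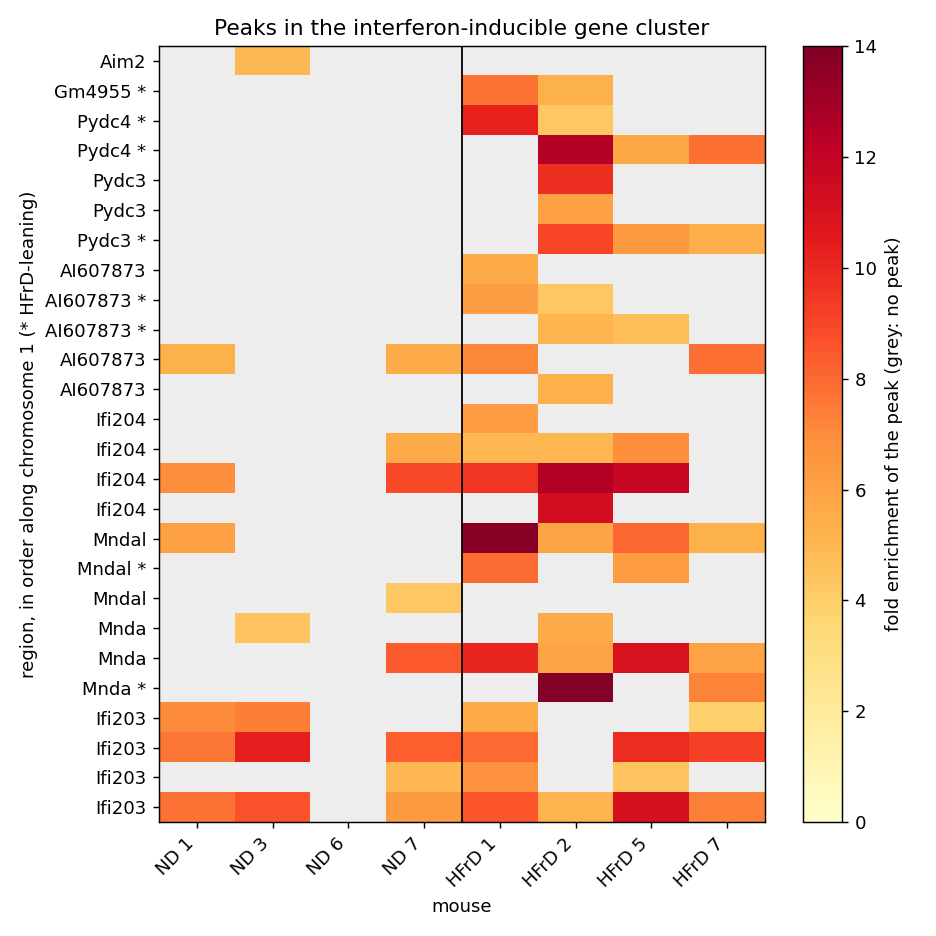
Fold enrichment of the peak (colour, grey for no peak) in each of the 26 regions of the Ifi200 family cluster on chromosome 1 (vertical axis, in genomic order by host gene, an asterisk marking the 8 HFrD-leaning regions) for the 4 ND and 4 HFrD mice (horizontal axis). The ND mice on the left show 0 to 8 peaks each and the HFrD mice on the right 9 to 17, with a column for ND mouse 6 that holds none.

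Further immune genes held HFrD-leaning regions outside the cluster. Ifit2, an interferon-induced antiviral protein, leaned to HFrD on exon 2 of 3, at 7.66, 8.85 and 7.22 in mice 1, 2 and 7, and on exon 1, at 7.28 and 7.52 in mice 2 and 7. Tlr2, a receptor for bacterial lipoproteins, had 2 regions on exon 3 of 3, one with 11.75 and 7.54 in mice 5 and 7 and one with 6.46 and 5.68 in mice 1 and 5. Tlr2 had no ND peak, whereas Ifit2 had a peak elsewhere in 3 ND mice.

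Some mRNAs carried a region of either kind, 43 genes in all, which were 9.89% of the HFrD-leaning and 4.85% of the ND-leaning host genes. Lipe, the hormone-sensitive lipase, was the closest case. Its region at chr7:25379571-25380173 had peaks of 7.63, 10.33, 11.98 and 6.34 in the 4 ND mice and none in an HFrD mouse, and 352 bp away, at chr7:25380526-25380956, HFrD mice 5 and 7 had peaks of 8.26 and 5.27. Stat5b, the transcription factor of growth hormone signalling, had a region at chr11:100797064-100797243 with 4.66, 5.74 and 6.11 in ND mice 1, 3 and 7 and one at chr11:100808396-100808533, exon 2 of 19, with 8.1, 8.92 and 6.18 in HFrD mice 2, 5 and 7. Per2, a repressor of the circadian clock, had an HFrD-leaning region on exon 21 of 23 with 6.32, 7.93 and 9.49 in mice 2, 5 and 7, and 3091 bp away an ND-leaning one with 3.73 and 4.99 in ND mice 6 and 7. The number of Per2 peaks overlapped between diets, with 1, 2, 4 and 3 in ND mice 1, 3, 6 and 7 and 3 in each HFrD mouse. Over the 43 genes the median distance between the closest HFrD-leaning and ND-leaning regions was 8250 bp, and in 4 genes it was within 1000 bp.

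New sites were placed on the exons of their mRNAs. In 71% of the peaks with a model of their own transcript, the deposited start and end were exactly those of 1 exon. The position of most regions is thus known to the exon, and their width is mostly an exon length. Some regions ran beyond the exon they were assigned to. The Tbc1d31 region on exon 15 had 153 of 351 bp in exon sequence and the Nr1h4 region 369 of 1008 bp. Of the 306 new sites, 196, or 64.1%, lay in a gene with a peak in all 4 ND mice. The nearest ND peak of the same gene was at a median of 4425 bp (quartiles 1543 and 15787 bp), within 1000 bp for 54 and within 100 bp for 1. Among the 299 with a transcript model, the gene had an ND peak in the same exon in 4, in a neighbouring but not the same exon in 141 (47.2%) and further off in 154 (51.5%). Whether a peak that ran over an exon junction was listed on different exons in different mice was not tested, since the span over several exons is not given.

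The 2 classes of region differed in place. Regions in genes without ND peaks lay on the last exon in 81 cases, or 52.3%, against 34, or 11.4%, of the new sites and 25.1% of all regions outside the rule. They had a median width of 573 bp, against 182 bp for new sites, and were a whole exon in 42.6% against 80.3%. Their transcripts had a median of 7 exons, against 14 for new sites. By the rule, a new site also cannot overlap an ND peak of its gene. How far the number of exons and the rule account for the difference in place was not tested. Their middle lay within 200 nt of the stop codon in 19.9% and in the 3′ UTR in 13.7%, against 5.72% and 6.4% of the new sites. The ND-leaning regions split the same way, with 39.9% of those in genes without HFrD peaks and 17.7% of the others on the last exon. Taken as 1 set, the HFrD-leaning regions were spread much like the rest: 24.8% near the start codon, 51.7% in the coding sequence, 10.4% near the stop codon and 8.8% in the 3′ UTR, beside 25.2%, 49.4%, 13.1% and 8.97% of all other regions. Regions are not independent replicates and these shares carry no test.

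**Figure D5:**
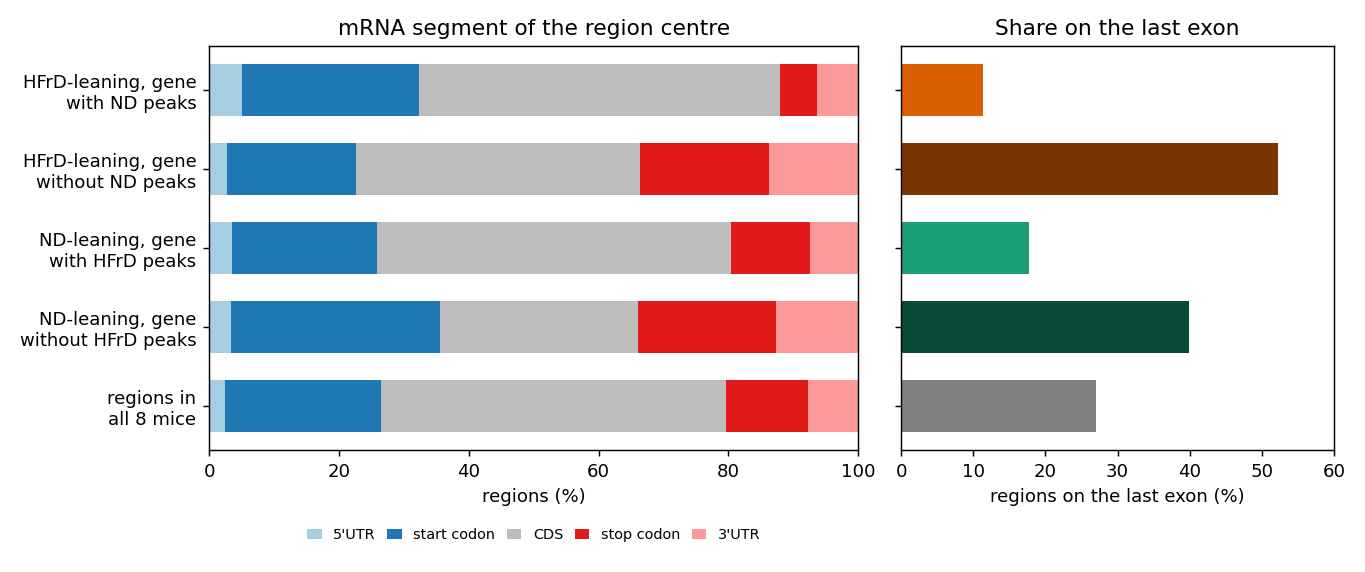
Left, share of regions (horizontal axis, %) whose middle lay in each of 5 mRNA segments, and right, share on the last exon of the transcript (horizontal axis, %), for HFrD-leaning and ND-leaning regions split by whether the gene had peaks on the other diet, and for regions in all 8 mice. The last exon held 52.3% of HFrD-leaning regions in genes without ND peaks, 11.4% of those in genes with them, and 27% of regions in all 8 mice.

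GGACT was about as frequent in these regions as in others of their length. The motif, searched on the transcribed strand of the exonic sequence, was present in 137 of 454 HFrD-leaning regions with a transcript model, or 30.2%, and in 31.6% of other regions at the same lengths. Its density was 0.996 per kb on the transcribed strand and 1.11 per kb on the opposite strand, whereas over all other regions it was 1.17 and 1.04 per kb. GGAC, which contains every GGACT, was present in 63.2%, beside 65.7% of other regions at the same lengths, at 4.34 per kb against 3.48 per kb on the opposite strand. ND-leaning regions had 1.24 GGACT per kb, and regions in all 8 mice 1.16. Of the 16 regions in all 4 HFrD mice, 10 held a GGAC and 7 a GGACT. The exons of Tbc1d31, Ctsl, Osbpl8, Hcls1 and Ttc3 in that set held neither, nor did the first exon of Fabp1.

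The strongest regions beyond those named above were found in 3 or 2 mice. Nfib, a nuclear factor I transcription factor, had 18.95, 14.83 and 17.75 in HFrD mice 1, 2 and 7 over its last exon, 53577 bp from its nearest ND peak. C8a, a chain of the complement membrane attack complex, had 9.49, 8.85 and 9.14 in mice 2, 5 and 7 over its last exon and no ND peak. Agbl5, a tubulin deglutamylase, had 26.04, 32.42 and 20.77 in mice 2, 5 and 7 over a first exon of 149 bp. Among regions in 2 mice, first exons again held very strong peaks: Ptms (parathymosin) had 65.26 and 65.78 in mice 2 and 7, and Gmpr2 (a GMP reductase) 144.3 and 60.18 in mice 5 and 7, at percentiles between 97.8 and 98.6. Mphosph8, a chromatin reader of the silencing complex HUSH, had deposited ratios of 2598 and 3805 in mice 5 and 7 over a 100 bp stretch, far above the list medians of 8.03 and 7.52. The genes Gm9726, Gm1840 and Gm9797, each a single-exon model, and Rpl23a and Eno1b have near-identical copies or retrocopies in the mouse genome, and their regions are uncertain for that reason. Several regions fell in 1 gene in 22 cases, with 4 in Dst (dystonin, a giant cytoskeletal linker with 11 to 25 peaks in every mouse), 4 in Tbc1d31, and 3 each in Marco and Ttc3. The widest were on the large exons of Mki67, the proliferation antigen, at 4002 bp, and of Zfp738 at 4000 bp.

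The host genes also carried other peaks, outside the chosen regions. The rule did not use these peaks, but it chose the host genes from the same lists, so they are not independent evidence. The 145 host genes without ND peaks could add other peaks in HFrD mice only, which favours a positive difference. In the same way, 314 ND-leaning regions lay in genes without HFrD peaks. Such genes could add other peaks in ND mice only, which favours a negative difference for the ND-leaning host genes. The permutation kept the chosen host genes fixed, so its p does not allow for their choice by diet and is given as a description. As a share of all peaks of the same mouse outside the chosen regions, the host genes of HFrD-leaning regions held 6.01%, 6.37%, 6.25% and 6.47% in ND mice 1, 3, 6 and 7 and 6.36%, 6.8%, 6.98% and 6.92% in HFrD mice 1, 2, 5 and 7. HFrD mouse 1 lay within the range of the ND mice and the other 3 above it. The means were 6.76% ± 0.278 (SD, n = 4) for HFrD and 6.27% ± 0.2 (SD, n = 4) for ND, a difference of 0.49 percentage points (exact permutation test over mice, two-sided, p = 0.0857, adjusted p = 0.171 over 2 tests; the smallest p possible with 4 against 4 mice is 0.0286). For the host genes of ND-leaning regions the shares were 12.7% ± 0.578 in HFrD and 13.4% ± 0.54 in ND mice (SD, n = 4), a difference of -0.641 points (exact permutation p = 0.171, adjusted p = 0.171). Neither difference passed the threshold of 0.05. The chosen peaks leave the total of the diet they lean to but not that of the other diet, and with all peaks of a list as the total, an alternative added after seeing the data, the differences were 0.297 points (exact permutation p = 0.143, adjusted p = 0.286) and 0.122 points (exact permutation p = 0.714, adjusted p = 0.714), the second turning its direction.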

How the data were processed

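Livers of 4 ND and 4 HFrD mice gave 8 IP and 8 input libraries. The submitters' processing notes name cutadapt 1.9.3, HISAT2 2.0.4 and mm10. The authors called peaks with MACS (version and settings: not given in the sources used here) and kept those on mRNA exons. For each peak the authors deposited a score (log10 of the p-value times minus 10, from 50 to 3233), a fold enrichment ratio (IP over input) and an FDR in percent. Library depth is unknown here.

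Peaks were merged with Python 3.11.15; spans are 1-based in the text. RefSeq GRCm38 and GENCODE M21 models covered 92.7% of peaks. Segments were the study's 5, with 200 nt on each side of a start or stop codon. Exact permutation tests over mice were two-sided, adjusted by Benjamini-Hochberg, and kept the chosen host genes fixed. Merging was tried on simulated lists and the test on set values, without the choice of host genes. Members, 19 gene lists and named genes were chosen with earlier results of these data known. All regions in 4 HFrD mice were named. Others were drawn, per class, from the 6 highest-ranked in 3 and 4 in 2 mice. Hosts on a list, genes with 2 or more regions and the 3 widest were further sources, beside those said to be picked later. Not every gene drawn this way is described, and Nupr1, Pou2f2, Akap8l, Sart1, Upf3a, Onecut2 and several genes with 2 or more regions were left out. The interferon response list is not reported here. Alternatives covered peak strength, list length, merging, number of mice and leaving out each mouse.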

Additional observations from a re-analysis of the deposited data

Results flagged for a closer look

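ND-leaning regions made up 4.61% of the peak list of ND mouse 1, against 6.02% to 6.07% in ND mice 3, 6 and 7, a single value far from the other 3 of its group. The list of ND mouse 1 was the shortest of the ND lists, at 8959 peaks. Such a check picks out about 1 in 20 groups of 4 by chance. No HFrD mouse stood apart in the same way in its share of HFrD-leaning regions, in the other peaks of the host genes, in the cluster on chromosome 1, or in any of the 16 regions with a peak in all 4 HFrD mice.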

How the results depend on the processing

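Beside 463 HFrD-leaning and 977 ND-leaning regions, with 306 new sites and 157 regions in genes without ND peaks, a score of at least 100 gave 256 HFrD-leaning regions (138 new sites), but 82 of the 463, and 12 of the 16 in all 4 HFrD mice, remained; the others came in as ND peaks under that score no longer counted. Equal list lengths gave 556 ND-leaning regions and 246 HFrD-leaning regions in genes without ND peaks, with 269 of the 463 remaining. A minimum of 3 mice gave 99 HFrD-leaning (57 new sites, 42 in genes without ND peaks) and 313 ND-leaning regions. Leaving out each mouse in turn gave 231 to 791 HFrD-leaning regions, 548 to 1429 ND-leaning regions, 148 to 517 new sites and 83 to 274 regions in genes without ND peaks. With a replicate block of the shared numbers 1 and 7 (a peak in both mice of a diet and neither of the other), 190 regions leaned to HFrD, 113 of them new sites and 77 in genes without ND peaks, and 79 of the 463 remained. Nothing says that a shared number marks a shared litter or day, so these are not pairs by design. Fold enrichment of at least 3 or 5, a reciprocal overlap of 50%, merging within a gene name and a margin of 100 bp kept each of the 4 counts within 1.5 times. Of the 463 regions, 312 remained with the stricter of these fold minimums.

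The difference in other peaks of HFrD-leaning host genes ranged from 0.226 to 0.722 points when 1 mouse was left out and was 0.402 within numbers 1 and 7 (replicate block). That of ND-leaning host genes ranged from -0.874 to -0.211 and was -0.848 in the block. With all peaks of a list as the total, chosen after seeing the data, the first was 0.297 and the second 0.122, its direction reversed. Neither passed 0.05 under the alternatives run, with adjusted exact permutation p from 0.0571 to 0.286 and from 0.0571 to 0.714; the block gives no p. One test alone cannot pass, since the smallest exact permutation p of 0.0286 adjusts to 0.0571. The first stood there at a fold enrichment of at least 5, with genes in place of peaks, and without HFrD mouse 1 or 5. The second stood there at a score of at least 100. In every alternative the host genes were chosen by diet from the same lists. These p do not allow for that choice and remain a description. Merging by exon blocks was not run because the files give 1 span per peak. Depth per library is unknown, so a region absent from a list may be a region not sequenced deeply enough there; the cause of each absence was not tested.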
